A study of Mus musculus with 8 samples.

Results

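Genes of protein folding were examined in the hearts of mice that overexpress PKR2: chaperones of the endoplasmic reticulum (ER) and the cytosol, the regulators of the unfolded protein response (UPR) and 2 enzymes it induces. The list held 34 gene names, grouped by their known roles. Members were taken where the gene name printed in the array files equalled a listed name (the older name Hspca counted as Hsp90aa1), and the brightest probe stood for the gene. This gave 31 genes of the 14005 with a symbol that were measured. Dnajc3 and Hsph1 were absent under those names; probes for both were found by transcript accession under older names and are described apart. No probe was found for Hspa1b.

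The study compared 4 wild-type (WT) mice with 4 mice overexpressing PKR2. All 8 were males aged 12 weeks, and total RNA of the heart of each mouse was hybridised to its own 1-colour oligonucleotide array. PKR2 is taken to mean prokineticin receptor 2, which signals through G proteins. The promoter that drives the overexpression, the strain, and whether the mice were littermates are not given in the sources used here, so p-values measure the spread between these 8 hearts. Whole heart RNA pools many cell types, and fewer cells of a type cannot be told apart from less RNA per cell.

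The ER folds secreted and membrane proteins with the help of the chaperones Hspa5 (BiP) and Hsp90b1 (Grp94), the lectin chaperones calnexin and calreticulin, and disulfide isomerases. When unfolded proteins build up there, 3 sensors signal to the nucleus through the transcription factors Atf6, spliced Xbp1 and Atf4, which raise the transcription of chaperones, degradation factors and amino acid enzymes. In the cytosol, heat shock factor 1 drives inducible chaperones such as Hspa1a, and heart muscle keeps high amounts of small heat shock proteins, above all Cryab, which guard the contractile filaments.

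Several members are known targets of these factors through short promoter elements, so the upstream 250 bases of the RefSeq promoters (build GRCm38.p6) were searched on both strands for 5 motifs. A promoter was held for 29 of the 34 symbols, 34 promoters in all because some genes have several. The ER stress element (ERSE), through which Atf6 acts with NF-Y, is CCAAT and CCACG with any 9 bases between. It was found in 0.113% of 32851 promoters and in 7 members: Hspa5, Hsp90b1, Calr, Canx, Pdia6, Creld2 and Dnajc3. These 8 windows carry the match in capitals, and Hsp90b1 holds 1 match on each strand. On the other strand the letters read from CGTGG to ATTGG.
Hspa5, chr2:34772013-34772055, plus strand: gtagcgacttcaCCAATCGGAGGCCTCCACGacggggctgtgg
Hsp90b1, chr10:86705626-86705668, minus strand: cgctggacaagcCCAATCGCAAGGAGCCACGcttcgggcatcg
Hsp90b1, chr10:86705521-86705563, minus strand: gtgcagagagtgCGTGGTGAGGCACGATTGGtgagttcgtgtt
Calr, chr8:84847063-84847105, minus strand: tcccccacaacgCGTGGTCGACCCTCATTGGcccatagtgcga
Canx, chr11:50325788-50325830, minus strand: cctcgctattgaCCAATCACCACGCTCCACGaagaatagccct
Pdia6, chr12:17266479-17266521, plus strand: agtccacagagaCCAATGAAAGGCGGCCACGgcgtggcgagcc
Creld2, chr15:88819508-88819550, plus strand: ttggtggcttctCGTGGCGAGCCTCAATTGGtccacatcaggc
Dnajc3, chr14:118937815-118937857, plus strand: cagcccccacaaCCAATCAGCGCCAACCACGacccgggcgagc

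The variant element ERSE-II (ATTGG and CCACG with 1 base between) was held by 0.0304% of all promoters, and among members by Herpud1 alone. The C/EBP-ATF response element (CARE, TGATGCAA), to which Atf4 binds, was held by 0.791% of promoters and by 2 members, Chac1 and Herpud1. Herpud1 was thus the member whose window held the letters of both an ERSE-type element and a CARE. Its 250 bases are shown beside those of Hspa5, each with the matches in capitals, and the CARE of Chac1 is shown in a shorter window. In both Herpud1 and Chac1 the CARE lies on the other strand and reads TTGCATCA.
Hspa5, chr2:34771840-34772089, plus strand: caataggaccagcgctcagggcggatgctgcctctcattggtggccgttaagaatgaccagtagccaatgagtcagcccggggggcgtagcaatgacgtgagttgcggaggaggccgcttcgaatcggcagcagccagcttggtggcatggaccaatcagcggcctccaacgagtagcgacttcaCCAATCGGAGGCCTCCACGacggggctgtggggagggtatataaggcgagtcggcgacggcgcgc
Herpud1, chr8:94386179-94386428, plus strand: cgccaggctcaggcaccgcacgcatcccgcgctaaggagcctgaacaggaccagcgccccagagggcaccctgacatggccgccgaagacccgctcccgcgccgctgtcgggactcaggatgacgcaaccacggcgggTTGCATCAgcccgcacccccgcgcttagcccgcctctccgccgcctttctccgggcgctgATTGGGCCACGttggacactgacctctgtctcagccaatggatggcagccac
Chac1, chr2:119351037-119351068, plus strand: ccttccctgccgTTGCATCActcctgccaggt

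A pair of heat shock element units (GAANNTTC), the kind of letters that heat shock factor 1 reads, is short and was held by 6.69% of all promoters. It was found in Asns, Dnaja1, Hspb1, Hspb6, Hspa1a and Hspa1b. The windows of the last 2 were the same letter for letter, as the genes are near-identical neighbours on chromosome 17, and a probe for Hspa1a may also read Hspa1b. The unfolded protein response element (UPRE, TGACGTGG), held by 0.563% of promoters, was in no member window, which says only that these letters are not there. A match is a stretch of letters, not a measured binding site. For each motif only the letters given were searched, so the lack of a match, as of the CARE in Asns, says nothing of variant forms.
Hspa1a, chr17:34972241-34972272, minus strand: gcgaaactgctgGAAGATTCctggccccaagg
Hspa1b, chr17:34959323-34959354, minus strand: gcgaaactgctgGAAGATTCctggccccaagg
Hspb6, chr7:30553169-30553200, plus strand: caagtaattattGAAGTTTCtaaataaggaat

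The 75th percentile of processed signal ran from 38.1 (WT 2) to 736 (PKR2 1), and 48.3% to 67.1% of spots were well above background. Levels below are log2 signal relative to that percentile of the same array, hearts are listed in the order 1 to 4, and differences are PKR2 minus WT on that log2 scale. The arrays lay on 6 slides, of which slide 5 held WT 3 and PKR2 3 and slide 6 held WT 4 and PKR2 4. Each other slide held 1 of the hearts, so a fit with slide as a fixed block compares the groups through slides 5 and 6 alone. The hearts of slide 6 stood apart in the clock gene Arntl, picked after its values were seen, at -0.76 and -0.19 against -3.77 to -2.74 in the other 6. The single Prokr2 probe was above background on none of the 8 arrays and does not check the genotype labels. All 10 cardiomyocyte markers listed, among them Myh6 and Tnnt2, were above background on every array. All 31 members were also above background on every array, and none was saturated.

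Across the 31 members no difference between the groups passed the test. The mean was higher in PKR2 hearts for 13 members and lower for 18, with a median difference of -0.039, beside -0.0079 over all 15657 features tested, of which 48.1% were higher. No member passed limma's threshold of 0.05 on the adjusted p (Benjamini-Hochberg over all features); this was so for 0% of all features, and each member's adjusted p rounded to 1. At an unadjusted limma p under 0.05 there were 2 members, Asns and Pdia6, both lower in PKR2 hearts, where 2.37% of all features passed in either direction and 1.41% as lower. The groups did not overlap in 1 member, Pdia6, beside 1.56% of all features in either direction and 0.862% as lower. In the fits run under alternatives, the smallest adjusted p of any member was 0.591.

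These counts of direction depended on the processing. With the normexp method, which also adds an offset of 50 to every array, 27 of the 31 members were higher in PKR2 hearts. The median difference was then 0.35, while the median of all features was -0.010. The 75th percentile of processed signal was 38.1 in WT 2 and 736 in PKR2 1, and the part of the offset in these values was not tested. With median scaling 12 were higher, with the mean over each gene's probes 18. Within slide 5 the median over the members was 0.0050, and within slide 6 it was -0.16. The sign of 6 members held in every one of the 27 alternatives: Atf6, Xbp1, Pdia4, Hsp90ab1 and Hspb8 were higher in PKR2 hearts and Chac1 lower. The other probe filters, the names from the files only and the trended robust variance left every member's difference unchanged. Those alternatives could therefore not turn a sign. For a typical member the 95% interval of the difference reached 0.46 to either side, about the median of all features (0.48).

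**Figure D1:**
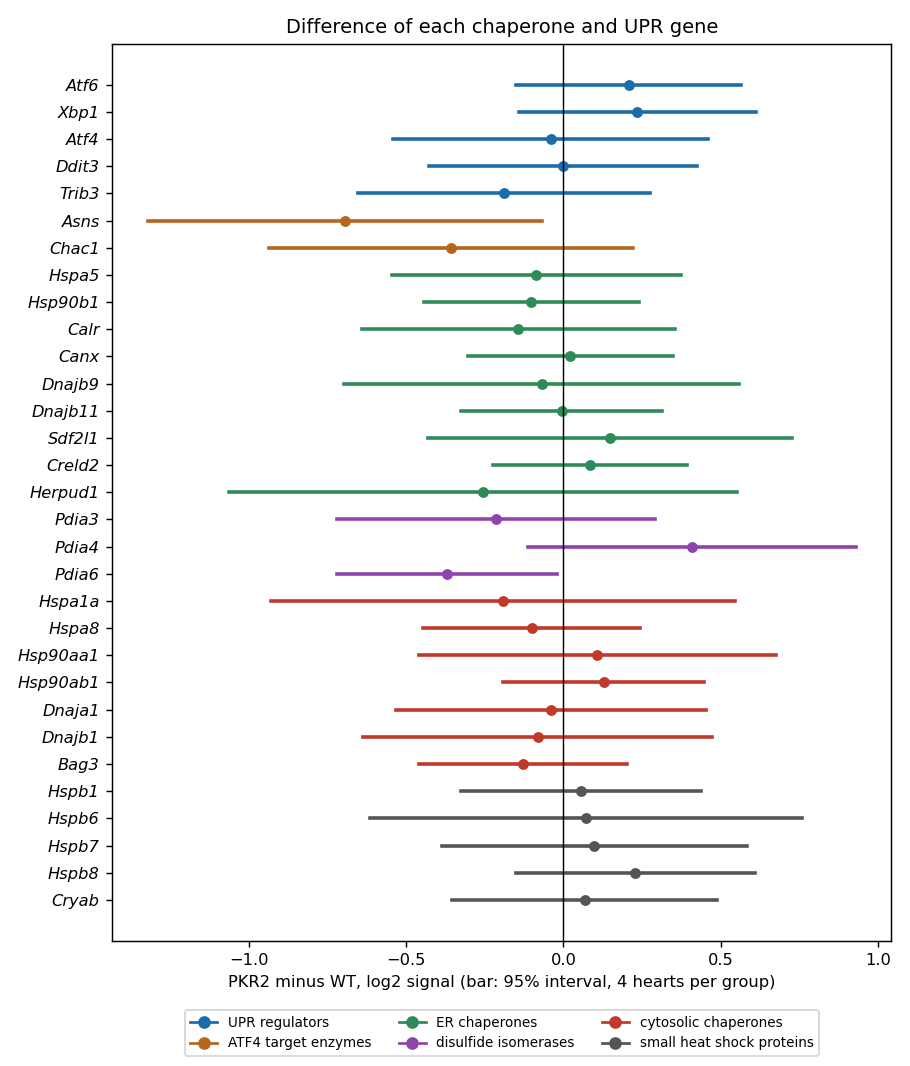
Difference PKR2 minus WT in log2 signal for each of the 31 genes, coloured by role. Points are differences of group means and bars are limma's 95% intervals with 4 hearts per group. The bars of Asns and Pdia6 alone leave out 0.

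Of the 5 UPR regulators 2 had a higher and 3 a lower mean in PKR2 hearts, and the median of their differences was -0.0015. Atf6, the membrane-bound factor that is cut free under ER stress, measured 2.54, 2.46, 2.93 and 2.46 in WT hearts and 2.67, 2.85, 2.94 and 2.76 in PKR2 hearts. Apart from WT 3 the WT hearts lay below every PKR2 heart. The difference was 0.21 (95% interval -0.15 to 0.57, exact permutation p = 0.143), and the further Atf6 probe gave -0.067. Xbp1, whose transcript is spliced by the sensor Ire1, measured 1.34, 1.25, 1.20 and 1.31 in WT hearts and 1.56, 1.12, 1.56 and 1.78 in PKR2 hearts. Of the PKR2 hearts 3 lay above every WT heart and PKR2 2 lay below every one. Its difference was 0.23 (-0.14 to 0.61, exact permutation p = 0.143), and it was 0.37 within slide 5 and 0.48 within slide 6. The probe measures total Xbp1 signal, and splicing was not analysed here.

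Atf4, the translationally controlled factor of the stress response, measured 0.92, 0.11, 0.38 and 0.64 in WT hearts and 0.87, 0.13, 0.38 and 0.50 in PKR2 hearts. Each group spanned nearly the same range, and the difference was -0.041 (-0.54 to 0.46). Ddit3 (CHOP), a pro-apoptotic target of Atf4, stood at 0.028, -0.27, -0.47 and -0.017 in WT hearts. In PKR2 hearts it was at 0.14, -0.52, -0.11 and -0.23. The groups overlapped fully, with a difference of -0.0015 (-0.43 to 0.42). As a ratio, its 95% interval ran from 0.744-fold to 1.34-fold. Trib3, a pseudokinase induced by Atf4 and Ddit3, read -0.10, -0.026, -0.55 and 0.44 in WT hearts and -0.34, -0.16, -0.30 and -0.20 in PKR2 hearts. The WT hearts held both the highest and the lowest Trib3 value, and the difference was -0.19 (-0.65 to 0.27). The further Trib3 probe gave 0.26, and the mean over both probes 0.036.

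Of the enzymes induced through Atf4, Asns had the largest difference of all members. Asns makes asparagine, and it measured 1.79, 2.24, 1.24 and 1.69 in WT hearts and 0.40, 1.18, 1.55 and 1.06 in PKR2 hearts. Of the PKR2 hearts 3 lay below every WT heart, while PKR2 3 lay above WT 3. Means were 1.74 ± 0.41 and 1.05 ± 0.48 (SD, n = 4), a difference of -0.69 (SE 0.28, 95% interval -1.32 to -0.07, 0.618-fold). The unadjusted limma p was 0.0330, the exact permutation p 0.0571 and the limma adjusted p 1, so the difference did not pass. On slide 5 the difference was 0.30 and on slide 6 it was -0.63. With slide as a fixed block, which compares the groups through these 2 slides alone, it was -0.16. Chac1, which breaks down glutathione, read 1.36, 1.23, 1.28 and 0.72 in WT hearts and 0.57, 1.38, 0.96 and 0.24 in PKR2 hearts. It was lowest in PKR2 4 and highest in PKR2 2, and the difference of -0.36 (-0.94 to 0.22) was within the spread of the hearts.

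Asns was lowest in PKR2 1, a heart that also read low for fat cell markers. The mean deviation of 10 adipocyte markers (of 11 listed, each above background on all 8 arrays) was 1.22, 1.13, -0.11 and 1.08 in WT hearts. In PKR2 hearts it was -2.12, -1.87, 0.40 and 0.27, and all 10 markers had a lower mean in PKR2 hearts. Within each group the lowest heart was the same for Asns and the adipocyte score, WT 3 and PKR2 1, and PKR2 3 was the highest PKR2 heart for both. Other hearts differed in order. Asns was higher in PKR2 2 (1.18) than in PKR2 4 (1.06), and highest in WT 2, while the adipocyte score was highest in WT 1. Without PKR2 1 and PKR2 2 the Asns difference was -0.44, and -0.21 when the adipocyte score entered the fit as a covariate. The 5 mesothelial markers also had lower means, at 0.04 to 0.22 in WT and -0.45 to 0.17 in PKR2 hearts, and the part of either cell type in the Asns result was not tested.

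**Figure D2:**
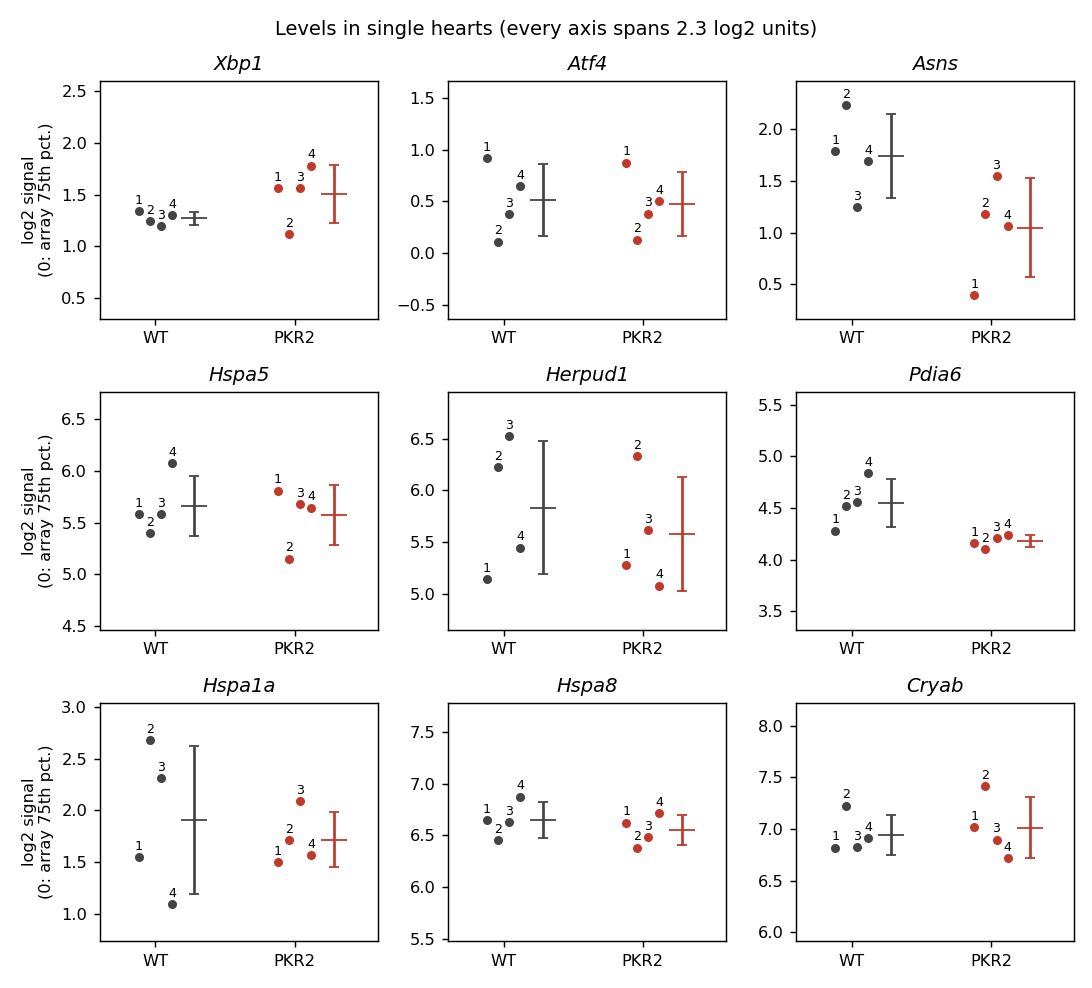
Log2 signal relative to the array's 75th percentile in each heart for 9 genes, with the heart number above each point and the mean ± SD beside each group. Every axis spans 2.3 log2 units. Pdia6 is the gene whose groups do not overlap, and Herpud1 and Hspa1a have WT hearts far apart from each other.

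The ER chaperones gave 3 higher, 6 lower and a median difference of -0.069. Hspa5, the master chaperone of the ER and the usual readout of its stress, measured 5.58, 5.40, 5.58 and 6.07 in WT hearts and 5.81, 5.15, 5.68 and 5.64 in PKR2 hearts. WT 4 was the highest heart and PKR2 2 the lowest, with the rest between. Group means were 5.66 ± 0.29 and 5.57 ± 0.29 (SD, n = 4), a ratio of 0.942 with a 95% interval from 0.686 to 1.30. Hsp90b1, the ER member of the Hsp90 family, read 6.12, 5.92, 6.06 and 6.10 in WT hearts and 6.21, 5.72, 5.96 and 5.90 in PKR2 hearts. PKR2 1 had the highest value and PKR2 2 the lowest, and the difference was -0.10 (-0.44 to 0.24). Calr, the soluble lectin chaperone, read 3.66, 3.40, 3.12 and 3.93 in WT hearts and 3.83, 3.23, 3.18 and 3.28 in PKR2 hearts. PKR2 1 stood apart from the other PKR2 hearts, which were at 3.28 or lower, and the difference was -0.14 (-0.64 to 0.35).

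Herpud1, a membrane protein of ER-associated degradation and a sensitive UPR target, had the largest SD within groups of all members when both groups were pooled (0.60). It measured 5.14, 6.22, 6.52 and 5.45 in WT hearts and 5.28, 6.33, 5.62 and 5.08 in PKR2 hearts. WT 2, WT 3 and PKR2 2 formed a high set, and the 8 hearts spanned 2.72-fold. The difference was -0.26 (-1.06 to 0.55). It was -0.51 without PKR2 2 and -0.027 without WT 3. On slide 5 it was -0.91, and on slide 6 -0.37. A fixed block for slide, which compares the groups through these 2 slides alone, gave -0.64 and missed limma's adjusted threshold. Dnajb9 (ERdj4), a co-chaperone of Hspa5, read 1.31, 2.23, 2.84 and 2.18 in WT hearts and 1.98, 2.12, 2.04 and 2.14 in PKR2 hearts. The PKR2 hearts lay together inside the WT range, whose extremes were WT 1 and WT 3, 2.88-fold apart. The difference was -0.069 (-0.70 to 0.56).

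The other ER chaperones, Canx, Dnajb11, Sdf2l1 and Creld2, had differences from -0.0060 (Dnajb11) to 0.15 (Sdf2l1). By their representing probes Canx, Dnajb11 and Creld2 were steady, spanning 1.24-fold to 1.26-fold over the 8 hearts. Sdf2l1 spanned 2.55-fold between PKR2 1 and PKR2 2. The further Canx probes gave differences of -0.12 and 0.19, the latter probe running from 0.39 (WT 4) to 1.54 (PKR2 1). Dnajc3 (p58IPK), found by accession, had a difference of -0.18 (-0.69 to 0.33) and was lowest in PKR2 1. The 6 ER members with ERSE letters that were found by gene name had a median SD within groups of 0.16. Dnajc3, which also holds these letters, was left out of that set and had an SD of 0.34. The median SD was 0.38 in the 6 ER members without ERSE letters, among them Herpud1 (0.60) with its ERSE-II, and 0.31 over all features. The median difference was -0.094 in the first set and -0.038 in the second, and these are descriptions with no test. The sets also differed in brightness. Mean WT levels ran from 3.20 (Creld2) to 6.05 (Hsp90b1) in the first and from 0.13 (Sdf2l1) to 5.83 (Herpud1) in the second. The part of brightness in the SDs was not tested.

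Among the disulfide isomerases 1 of 3 was higher and 2 lower. Pdia6, which forms and breaks disulfide bonds in the ER and damps its stress sensors, measured 4.28, 4.52, 4.56 and 4.84 in WT hearts and 4.16, 4.10, 4.21 and 4.24 in PKR2 hearts. Every PKR2 heart lay below every WT heart, but WT 1 (4.28) and PKR2 4 (4.24) lay next to each other. Means were 4.55 ± 0.23 and 4.18 ± 0.06 (SD, n = 4), a difference of -0.37 (SE 0.16, 95% interval -0.72 to -0.02, 0.774-fold). The exact permutation p was 0.0286, the smallest that 4 against 4 hearts allow, and the limma p was 0.0400 before and 1 after adjustment. On slides 5 and 6 the Pdia6 difference was -0.34 and -0.61, and leaving out 1 heart at a time gave -0.46 to -0.27. With normexp correction it was 0.057.

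Pdia6 was read by 4 probes, and the further ones gave differences of -0.18, 0.16 and -0.10, the last of them above background on 5 of the 8 arrays. With the mean over the 4 probes the difference was -0.12 (limma adjusted p = 1). Pdia4, a larger isomerase and Atf6 target, read 1.21, 0.54, 0.47 and 0.45 in WT hearts and 1.37, 0.59, 1.19 and 1.15 in PKR2 hearts. Of the WT hearts WT 1 lay among the high PKR2 hearts, and PKR2 2 lay close to the other WT hearts. The difference was 0.41 (-0.11 to 0.93, exact permutation p = 0.143), 0.72 on slide 5 and 0.70 on slide 6. Without WT 1 it was 0.59, with a limma adjusted p that again missed the threshold. Pdia3, the partner of calnexin and calreticulin, read 2.83, 3.54, 3.72 and 3.69 in WT hearts and 2.90, 3.42, 3.26 and 3.33 in PKR2 hearts. WT 1 and PKR2 1 were the low hearts, and the difference was -0.21 (-0.72 to 0.29).

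**Figure D3:**
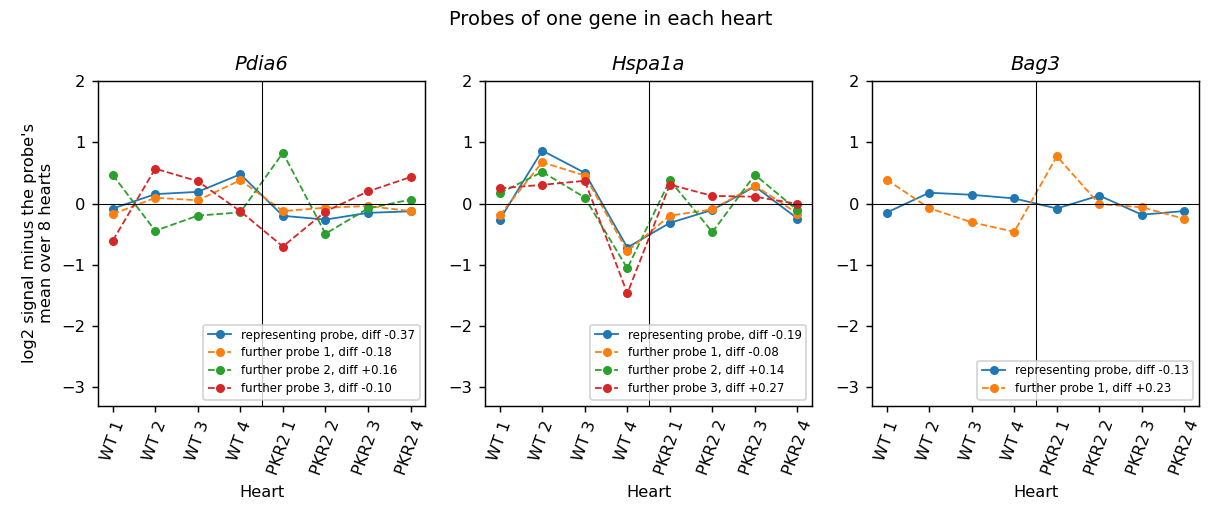
Log2 signal of every tested probe of Pdia6, Hspa1a and Bag3 in each heart, minus that probe's mean over 8 hearts, with the difference PKR2 minus WT in the key. The brightest probe represents the gene. The second further probe of Pdia6 reads highest in PKR2 1, where the representing probe is below its mean, and those of Hspa1a share the low value of WT 4.

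Probes of 1 gene did not always give the same sign. The 31 members had 22 further tested probes in 15 genes, and 10 of them, in 9 genes, had a difference of the opposite sign to the representing probe. Taken against the representing probe, the further probes read highest in PKR2 1 (median gap 0.22) and WT 1 (0.14) and lowest in WT 4 (-0.17), where 10 of the 22 had their lowest gap. Trib3, Canx, Bag3, Dnajb1 and Hspa8 were among the genes with a further probe of opposite sign.

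In the cytosolic chaperones 2 of 7 were higher and 5 lower, with a median difference of -0.082. Hspa1a, the heat-inducible Hsp70, measured 1.55, 2.68, 2.31 and 1.09 in WT hearts and 1.50, 1.71, 2.09 and 1.57 in PKR2 hearts. All PKR2 hearts lay inside the WT range, which spanned 2.99-fold from WT 4 to WT 2. The difference was -0.19 (-0.93 to 0.54, exact permutation p = 0.629), and it was -0.22 on slide 5 and 0.47 on slide 6. Its 3 further probes gave -0.082, 0.14 and 0.27, the last of them above background on 6 of the 8 arrays. Hspa8, the constitutive Hsc70, was steady at 6.65, 6.45, 6.63 and 6.88 in WT hearts and 6.62, 6.38, 6.49 and 6.72 in PKR2 hearts. Its hearts spanned 1.41-fold, with a difference of -0.10 (-0.45 to 0.24). The further Hspa8 probe gave 0.23, and the mean over both probes 0.063.

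Of the cytosolic Hsp90 genes, Hsp90aa1, the stress-inducible form, read 4.96, 6.01, 5.91 and 5.58 in WT hearts and 5.32, 6.02, 5.75 and 5.80 in PKR2 hearts. WT 1 and PKR2 1 were lowest, as for Pdia3, and the difference was 0.11 (-0.46 to 0.68). Hsp90ab1, the constitutive form, read 6.55, 6.48, 6.32 and 6.19 in WT hearts and 6.59, 6.55, 6.44 and 6.47 in PKR2 hearts. All PKR2 hearts lay above WT 3 and WT 4, and PKR2 1 and PKR2 2 reached the level of the highest WT heart, with a difference of 0.13 (-0.19 to 0.45). Bag3, the co-chaperone that hands misfolded sarcomere proteins to autophagy, read 5.54, 5.87, 5.83 and 5.77 in WT hearts and 5.61, 5.82, 5.51 and 5.57 in PKR2 hearts. The groups overlapped, with a difference of -0.13 (-0.46 to 0.20).

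The J-domain co-chaperones Dnaja1 and Dnajb1 had differences of -0.039 and -0.082, with intervals from -0.53 to 0.45 and -0.64 to 0.47. The further Dnaja1 probes gave -0.097 and -0.40, and the mean over its probes was -0.18. The further Dnajb1 probe gave 0.14, and the mean over its probes was 0.030. Dnajb1 was low in WT 1 (3.96) and PKR2 1 (4.10) and high in WT 3 (4.95), the same 3 hearts that marked the ends for Pdia3. Hsph1 (Hsp110), found by accession, had a difference of -0.033 (-0.43 to 0.36).

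All 5 small heat shock proteins had a higher mean in PKR2 hearts, by 0.055 to 0.23 with a median of 0.071, and none passed the test. Within slide 6 the median of the 5 was -0.20 and within slide 5 it was 0.076. It was -0.061 with slide as a fixed block, which compares the groups through those 2 slides alone. Without PKR2 1 the differences of Hspb6 and Hspb7 turned to -0.20 and -0.089. Of 10 cardiomyocyte markers 9 also had a higher mean in PKR2 hearts, with a mean deviation of -0.12 to 0.022 in WT and -0.10 to 0.23 in PKR2 hearts, and their part in these values was not tested. Cryab (alpha B-crystallin), which binds desmin and titin, measured 6.82, 7.23, 6.82 and 6.91 in WT hearts and 7.02, 7.42, 6.90 and 6.71 in PKR2 hearts. PKR2 hearts held both the highest and the lowest value, and the ratio was 1.05 with a 95% interval from 0.782 to 1.40. Hspb8, the partner of Bag3, read 5.11, 4.68, 4.75 and 4.85 in WT hearts and 5.38, 4.87, 4.97 and 5.08 in PKR2 hearts. Every PKR2 heart except PKR2 1 lay between WT 2 and WT 1, and the difference was 0.23 (-0.15 to 0.61).

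Hspb1 (Hsp25 in mice), which binds actin filaments, read 4.49, 4.64, 4.50 and 5.10 in WT hearts and 4.80, 4.69, 4.78 and 4.69 in PKR2 hearts. WT 4 was highest and the other WT hearts lay below all PKR2 hearts, with a difference of 0.055 (-0.33 to 0.44). A further probe that carries the name Hspb1 maps to chromosome 13 in the files, away from the main probe on chromosome 5, and was above background on no array. Hspb6 (Hsp20), a kinase-regulated protein of muscle, read 3.36, 2.60, 2.66 and 3.44 in WT hearts and 3.90, 2.85, 2.71 and 2.89 in PKR2 hearts. Hspb7, a sarcomeric protein of the heart, read 5.72, 5.27, 5.38 and 5.18 in WT hearts and 6.05, 5.32, 5.36 and 5.22 in PKR2 hearts. Both were highest in PKR2 1, and their differences were 0.071 (-0.62 to 0.76) and 0.098 (-0.39 to 0.58).

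**Figure D4:**
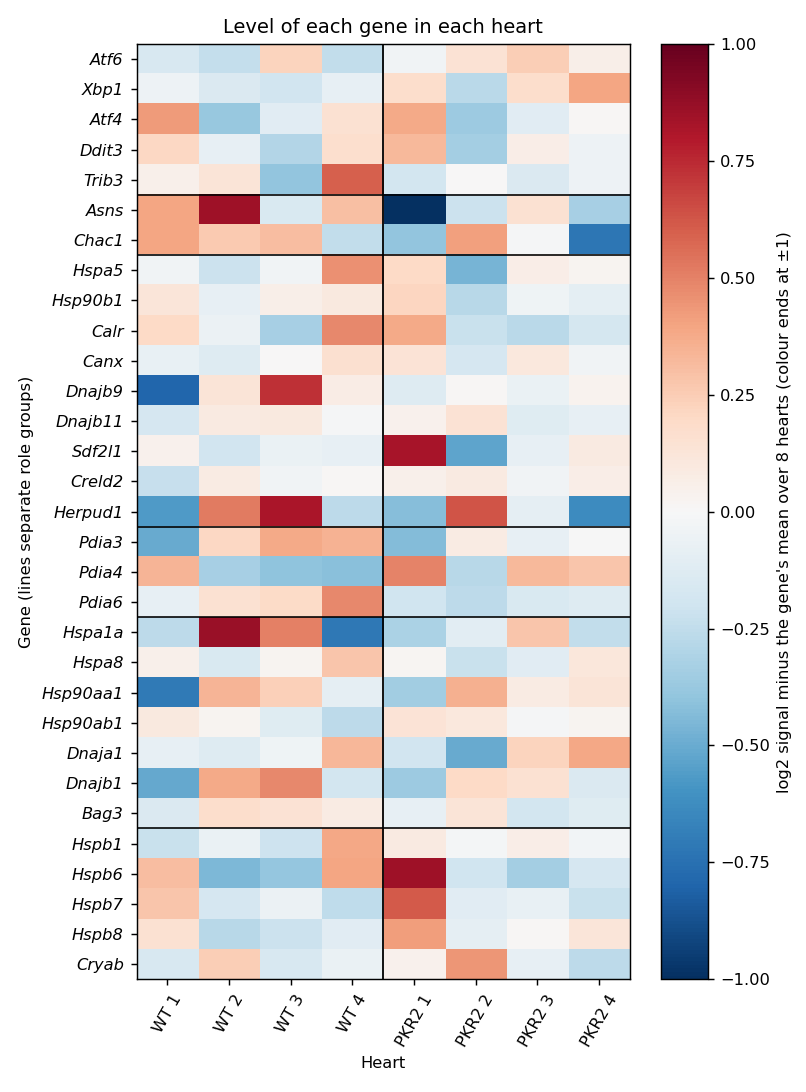
Log2 signal of each gene in each heart minus the gene's mean over the 8 hearts, with genes grouped by role and the WT hearts left of the vertical line. Colours end at 1 log2 unit. PKR2 1 is high for Hspb6, Hspb7 and Sdf2l1, and WT 1 is low for Dnajb9, Hsp90aa1 and Herpud1.

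High and low values were spread unevenly over the 8 hearts. PKR2 1 held the highest value in 8 of the 31 members and WT 4 in 7, shares of 25.8% and 22.6% beside 19.8% and 19.9% over all features. PKR2 2 held the lowest value in 9 members (29.0%, beside 12.4% over all features) and WT 1 in 7 (22.6%, beside 20.6%). The members lowest in PKR2 2 included Hspa5, Hsp90b1, Xbp1, Ddit3 and Pdia6. Over the 8 hearts the members spanned from 1.24-fold (Creld2 and Dnajb11) to 3.58-fold (Asns), and the median SD within groups was 0.29, beside 0.31 over all features.

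The rest of the pathway was read from 7 further lists holding 139 genes, 135 of them tested. Of these 60 were higher and 75 lower in PKR2 hearts, none passed limma's adjusted p, and 1, Creb3l3, had an unadjusted p under 0.05, beside 2.37% of all features. The groups did not overlap in 3, Creb3l3, Dnaja4 and Sesn2, beside 1.56% of all features. Creb3l3, Creb3l1 and Mbtps2 were above background on 2 of 4 WT and all 4 PKR2 arrays, so they were tested only through the PKR2 hearts and their differences support nothing. List medians ran from -0.081 (ER-associated degradation) to 0.023 (cytosolic co-chaperones and other heat shock proteins).

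Among 15 UPR sensors and effectors 7 were higher and 8 lower. Creb3l3, a membrane-bound relative of Atf6, was dim, with a measured difference of 1.04 (limma adjusted p = 1) whose sign turned with normexp correction (-0.54). Creb3l1, another relative, was as dim, with a measured difference of 0.48 that turned to -0.57. Eif2ak3 (PERK), the sensor upstream of Atf4, differed by 0.22. In 26 genes of ER folding and translocation 8 were higher and 18 lower, and those of smallest p were Uggt1, the folding sensor of glycoproteins (-0.36), Pdia5 (-0.16) and Ssr1 (-0.17). In 18 genes of ER-associated degradation 7 were higher and 11 lower. Ufd1, which extracts proteins with p97, differed by -0.42, Sel1l, the scaffold of the Hrd1 ligase, by -0.21, and Herpud2 by 0.18.

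In 22 ATF4 targets 9 were higher and 13 lower. Sesn2, an inhibitor of mTORC1 signalling, read 1.61, 1.67, 1.57 and 1.69 in WT hearts and 1.37, 1.49, 1.47 and 1.53 in PKR2 hearts. Every PKR2 heart lay below every WT heart, with a difference of -0.17 (limma adjusted p = 1), and the sign turned with normexp correction (0.018). Phgdh, the first enzyme of serine synthesis, differed by -0.41, with PKR2 1 and PKR2 2 lowest at -0.24 and -0.10, and it differed by 0.71 within slide 5. These were the hearts lowest for the adipocyte markers, and the part of those cells in the Phgdh value was not tested. Mthfd2, a mitochondrial folate enzyme, was dim and differed by 0.25.

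In 32 cytosolic co-chaperones and other heat shock proteins 19 were higher and 13 lower. Dnaja4, a J-domain partner of Hsp70, read 2.57, 2.59, 2.62 and 2.67 in WT hearts and 2.85, 2.69, 2.97 and 2.89 in PKR2 hearts. Every PKR2 heart lay above every WT heart, with a difference of 0.24 (limma adjusted p = 1) that was 0.51 with normexp correction. Dnajb5 differed by 0.37 and Bag4 by -0.39. The chaperonin and its partner prefoldin gave 6 higher and 6 lower, with Cct6a at 0.29, Cct4 at 0.18 and Pfdn2 at 0.22. The mitochondrial chaperones gave 4 higher and 6 lower, with Hspe1 (Hsp10) at -0.24, Clpx at -0.20 and Dnaja3 at 0.12. Of the genes named from these lists, normexp correction also turned the sign of Eif2ak3 (-0.14), Ssr1 (0.18), Mthfd2 (-0.73, and -0.066 in the authors' deposited values), Clpx (0.15) and Hspe1 (0.28).

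**Figure D5:**
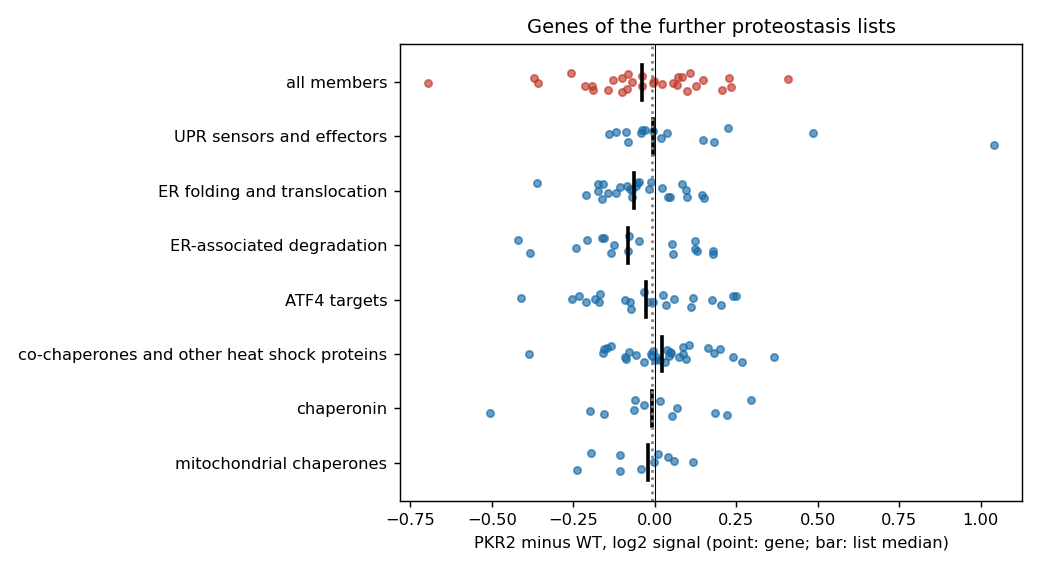
Difference PKR2 minus WT in log2 signal for each member (red) and each gene of the 7 further lists (blue). Thick bars are list medians, from -0.081 to 0.023 in the further lists, and the dotted line is the median of all features. The point at 1.04 is the dim gene Creb3l3.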

How the data were processed

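Heart RNA was labelled with Cy3, per the labels' protocols. Spots were read, background-subtracted and detrended with Agilent Feature Extraction 9.5.1.1, per the file headers, which place probes on build mm8. The deposited scanner values are spot intensity on a linear scale. The value table the authors deposited also holds intensity (column medians 139 to 144), and how it was normalized is not given in the sources used here. The correlation of its logarithm with the scanner's was 0.991 to 0.997. That was taken only across bright probes, well above those medians, and probes are not replicates. The scale of the value table was read as linear and it served as an alternative.

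Processed signals were taken to log2 minus each array's 75th percentile, without control or outlier-flagged spots, and spots of a probe were averaged. A probe was tested if well above background on at least 3 of 4 arrays of a group (22717 of 41174; 97 more lacked an unflagged spot on some array). Genes outside the list were named through RefSeq accession (24375 probes) or symbol or synonym (8727), the file's name (1788), or not at all (6284). The brightest probe represented a gene, giving 15657 features. PKR2 was set against WT by limma 3.58.1, run in R 4.3.3 by lmFit and eBayes without covariates, adjusted by Benjamini-Hochberg over all features, threshold 0.05; exact tests were two-sided over all 70 relabelings. The fit was tested on simulated data. Data were read with the package data.table (version 1.17.8).

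The members and lists were chosen with earlier results of these data known. Values in every heart are given for 7 set genes (Hspa5, Xbp1, Atf4, Ddit3, Hspa1a, Hspa8, Cryab), up to 3 more per role by smallest p and the 4 of largest spread within groups; up to 3 genes of smallest p are named per further list. Canx, Dnajb11, Sdf2l1, Creld2, Dnaja1, Dnajb1, Dnajc3 and Hsph1 are given by differences or ranges, and heart values of Dnajb1, Sesn2, Dnaja4 and Phgdh were added after they were seen. Alternatives were quantile and median normalization, normexp with offset 50, the authors' values, other probe filters and probe rules, slide, scan range and extraction hour as blocks, a trended robust variance and leaving out each heart. Leaving out 3 pairs of hearts and the adipocyte score as a covariate were added after the data were seen. The number of arrays limits the precision.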

Additional observations from a re-analysis of the deposited data

Results flagged for a closer look

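Among 62 groups of 4 hearts (31 members in WT and in PKR2 hearts), 3 held a heart far from the other 3 by Dixon's test at the 95% level, which chance gives in about 1 of 20 groups. Calr in PKR2 1 read 3.83, above the other PKR2 hearts. Hspb6 in PKR2 1 read 3.90, also above its group. Pdia4 in WT 1 read 1.21, above the other WT hearts and inside the range of the PKR2 hearts.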

How the results depend on the processing

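No member passed the threshold in any of the 25 refits with a test. The count of features called was 0 and became 1, a gene outside the list, with median scaling, with only probes above background on all 8 arrays, with slide as a random block, with a trended robust variance and without PKR2 3 (0 to 1 over the single hearts left out). Features with an unadjusted p under 0.05 numbered 371, and 1000 with slide as a fixed block, 780 with slide as a random block and 715 without WT 1. The share of features higher in PKR2 hearts was 36.4% with median scaling, whose all-feature median was -0.061, and 38.8% with no filter on dim probes. With normexp correction the medians were 0.35 (all members), 0.35 (ER chaperones), 0.092 (disulfide isomerases), 0.33 (cytosolic chaperones) and 0.50 (small heat shock proteins), and the sign turned for 14 members, and both the shift and the larger of the values before and after exceeded the SD within groups for Hspa5 (0.30), Hsp90b1 (0.41), Dnajb11 (0.38), Pdia6 (0.057), Hspa8 (0.35) and Bag3 (0.33); the cause was not tested. The median over all members was -0.092 with median scaling, 0.033 with the mean over probes, 0.027 without WT 4 and PKR2 4, and -0.10 (without PKR2 1) to 0.030 (without WT 4) over the single hearts left out. Within slide 5, 1 heart against 1 with no test, the medians were 0.25 (UPR regulators), -0.0087 (Asns and Chac1) and -0.34 (disulfide isomerases), and the sign turned for 11 members, past that SD in both respects for Ddit3 (0.36) and Asns (0.30). Within slide 6 they were -0.16 (all members), -0.14 (UPR regulators), -0.19 (ER chaperones), -0.35 (disulfide isomerases) and -0.20 (small heat shock proteins), and it turned for 7, past that SD for Canx (-0.19), Hspb1 (-0.41) and Hspb6 (-0.56). The median of the disulfide isomerases was -0.12 with the mean over probes, -0.41 with slide as a fixed block, -0.31 without WT 1 and PKR2 1, and -0.42 to -0.11 over the single hearts left out. With the adipocyte score as a covariate the sign turned for 6, past that SD for Dnaja1 (0.34). Of 26 fits, an unadjusted limma p under 0.05 was found for Asns in 13, Pdia6 in 8 and Pdia4 in 5. It was found for Xbp1 in 3, Hspb8 in 2, and Herpud1, Pdia3, Chac1 and Hsp90ab1 in 1 each. The fits reuse the same hearts, so these counts are not separate tests. With slide as a fixed block, which compares the groups through slides 5 and 6 alone, the members were Herpud1 and Pdia4. The labels give the groups no shared replicate numbers, so hearts were paired by slide alone. Every member was above background on all 8 arrays.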
